A study of Mus musculus with 4 samples.

Results

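Genes of immune signalling, namely interleukins, chemokines, their receptors and the Toll-like receptors, were followed through a DNA methylation survey of mouse embryonic stem cells with a netrin-1 transgene. They were taken by name, as every row whose gene symbol begins with Il, Ccl, Ccr, Cxcl, Cxcr or Tlr followed directly by a digit. The rule found 147 genes, each with a promoter row and a gene body row. It also found 220 rows of CpG islands and their flanks, listed under 36 of these genes. Together these were 514 of 135245 regions. By role, 38 genes were interleukins, 41 interleukin receptor chains, 35 chemokines, 17 chemokine receptors and 12 Toll-like receptors. The remaining 4 were Il1rn and Il18bp, whose products block IL-1 and IL-18, Il1bos, an antisense transcript, and Il4i1, an enzyme. By its symbol Il1f5, although an antagonist of the IL-36 receptor, was counted among the interleukins.

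The survey used reduced representation bisulfite sequencing (RRBS), in which MspI cuts genomic DNA at CCGG, fragments of a chosen size are kept, and bisulfite conversion separates unmethylated from methylated cytosines. There were 2 netrin-1 libraries, from cells stably carrying a netrin-1 transgene in the ppy-cagg-ires-puro vector, and 2 control libraries, from cells carrying that vector empty. All cells were of the CGR8 mouse embryonic stem cell line in serum and LIF, and both groups underwent transfection with the vector. Whether 2 libraries of a group stem from different clones or cultures is not in the labels, so their spread may be technical.

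The gene feature table held 36269454 and 53293458 calls in the netrin-1 libraries, against 31452170 and 41964981 calls in the control libraries, a call being 1 read of 1 cytosine position. The promoters of 7 embryonic stem cell genes served as a check of the cell label. The Nanog promoter had no call in any library. Of the other 6, those of Klf4, Pou5f1, Sox2, Tdgf1 and Zfp42 were at most 2.44% in every library, whereas Esrrb had 49.4% and 14.8% in the netrin-1 libraries, against 51.7% and 9.43% in the control libraries. No expression was measured. Across all promoters with calls in every library the mean level was 6.46% ± 0.170 in the netrin-1 libraries and 7.20% ± 0.0518 in the control libraries (SD, n = 2 each). Across all gene bodies it was 26.9% ± 1.12 in the netrin-1 libraries and 29.02% ± 0.178 in the control libraries, so differences of the immune genes were read beside this general one.

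Interleukins and chemokines are secreted signals that bind receptors on the cell surface, many of which act through shared subunits and JAK and STAT proteins. Toll-like receptors recognise microbial products and induce many of these cytokine genes. Most of the genes are used in immune cells, but Il6st encodes the signalling subunit through which LIF keeps mouse embryonic stem cells undifferentiated. Promoters within CpG islands are usually unmethylated in such cells, and CpG-poor promoters are often methylated.

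The promoters differ widely in CpG content and in the number of CCGG sites at which MspI can cut. RefSeq promoter windows (GRCm38.p6, 250 bases before to 50 after the start, 300 in all) were matched by symbol for 100 of the 147 genes. The windows shown are those to which the results below refer, with every CpG in capitals, 5′ to 3′ on the gene's own strand. Il6st (chr13:112463820-112464119 (+ strand)) stands for CpG-rich promoters of low methylation. Cxcr4 (chr1:128592250-128592549 (- strand)) was as low, although its promoter is typed as without an island and the island listed under the gene lies inside it. Il12rb2 (chr6:67376139-67376438 (- strand)) and Il15ra (chr2:11705043-11705342 (+ strand)) had the smallest p-values among promoters, and Tlr12 (chr4:128618570-128618869 (- strand)) was among the largest falls. Cxcl1 (chr5:90890995-90891294 (+ strand)) and Il1b (chr2:129371090-129371389 (- strand)) gave no call.
Il6st: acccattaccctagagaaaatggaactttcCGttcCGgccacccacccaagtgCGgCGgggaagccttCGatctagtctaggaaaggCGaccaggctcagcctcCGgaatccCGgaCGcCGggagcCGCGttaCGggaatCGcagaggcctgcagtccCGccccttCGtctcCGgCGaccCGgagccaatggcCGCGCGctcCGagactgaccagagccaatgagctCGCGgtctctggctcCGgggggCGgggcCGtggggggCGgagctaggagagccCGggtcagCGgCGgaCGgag
Cxcr4: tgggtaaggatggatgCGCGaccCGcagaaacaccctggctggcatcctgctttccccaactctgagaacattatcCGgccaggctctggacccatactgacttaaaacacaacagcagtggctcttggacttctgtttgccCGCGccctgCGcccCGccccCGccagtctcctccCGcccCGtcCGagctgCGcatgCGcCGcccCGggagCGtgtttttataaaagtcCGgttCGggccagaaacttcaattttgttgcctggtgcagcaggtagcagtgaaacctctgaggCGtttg
Il12rb2: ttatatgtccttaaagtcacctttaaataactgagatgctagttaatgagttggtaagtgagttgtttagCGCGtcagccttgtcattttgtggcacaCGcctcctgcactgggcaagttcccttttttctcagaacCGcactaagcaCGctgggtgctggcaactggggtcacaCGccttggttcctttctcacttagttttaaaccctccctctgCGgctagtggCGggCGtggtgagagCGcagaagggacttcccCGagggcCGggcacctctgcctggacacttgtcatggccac
Il15ra: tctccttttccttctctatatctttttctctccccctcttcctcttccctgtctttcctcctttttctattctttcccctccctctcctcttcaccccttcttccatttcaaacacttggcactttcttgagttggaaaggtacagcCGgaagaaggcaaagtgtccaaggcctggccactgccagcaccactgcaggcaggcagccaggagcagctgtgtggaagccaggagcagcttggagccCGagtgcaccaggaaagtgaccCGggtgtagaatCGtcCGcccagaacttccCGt
Tlr12: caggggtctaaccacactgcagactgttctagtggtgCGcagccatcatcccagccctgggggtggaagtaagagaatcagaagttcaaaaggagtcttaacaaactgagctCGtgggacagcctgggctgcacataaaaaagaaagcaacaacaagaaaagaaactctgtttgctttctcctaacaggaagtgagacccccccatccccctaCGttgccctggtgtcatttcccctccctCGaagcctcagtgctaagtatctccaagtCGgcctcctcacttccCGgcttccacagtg
Cxcl1: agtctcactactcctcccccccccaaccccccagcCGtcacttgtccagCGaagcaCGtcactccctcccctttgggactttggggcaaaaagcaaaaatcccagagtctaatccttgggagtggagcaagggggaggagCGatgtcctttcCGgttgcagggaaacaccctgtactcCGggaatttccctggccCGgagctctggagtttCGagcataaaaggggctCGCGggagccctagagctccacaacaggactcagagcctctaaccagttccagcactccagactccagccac
Il1b: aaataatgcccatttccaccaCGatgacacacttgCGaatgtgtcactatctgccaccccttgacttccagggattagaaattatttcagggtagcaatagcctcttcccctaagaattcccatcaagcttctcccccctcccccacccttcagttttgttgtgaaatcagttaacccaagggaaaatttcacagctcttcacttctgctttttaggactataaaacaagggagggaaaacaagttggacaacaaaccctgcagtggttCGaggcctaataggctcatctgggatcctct

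The Il6st window holds 33 CpGs and 8 copies of CCGG, the Cxcr4 window 20 and 3, and the Il12rb2 window 12 and 1. Those of Il15ra and Tlr12 hold 6 CpGs each. The Il1b window has 3 CpGs and no CCGG, whereas that of Cxcl1 has 10 CpGs and 3 copies of CCGG and was nevertheless without a call. CCGG reads the same on both strands, so 1 strand was searched. It occurs in 52.8% of all 32817 distinct RefSeq windows of this length.

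Much of the immune promoter set was invisible to the assay. No call in any library was recorded for 91 of the 147 promoters (61.9%), against 40.7% of all 28777 promoters. At least 10 calls in every library were present for 54 promoters (36.7%, against 55.9% of all). All 91 promoters without calls belonged to the 124 that the table lists without a CpG island. Of all 16385 promoters without an island, 11428 had no call, a share near that of the 91 among the 124. At least 10 calls were present for 31 of the 124 and for 4245 of the 16385. The lower coverage of the set thus goes largely with its many promoters without an island. They include those of the inflammatory genes Il1b, Il10, Il18, Ccl2 and Cxcl1, of the receptors Ccr1, Il2rg and Il11ra1, and of Tlr4 and Tlr9, so nothing can be said here of their promoter methylation.

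Among the matched windows, promoters with at least 10 calls had a median of 11 CpGs, and CCGG occurred in 26 of 38 (68.4%). Promoters with no call had a median of 3 CpGs, and CCGG occurred in 14 of 60 (23.3%). Over all matched genes CCGG occurred in 86.3% of promoters with at least 10 calls and in 15.7% of those with no call. Whatever the calls, it occurred in 62.8% of all matched promoters and in 40% of the 100 immune ones. The match is a description of 300 bases within promoters of 1 kb, and fragment size also decides which sites are read.

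**Figure D1:**
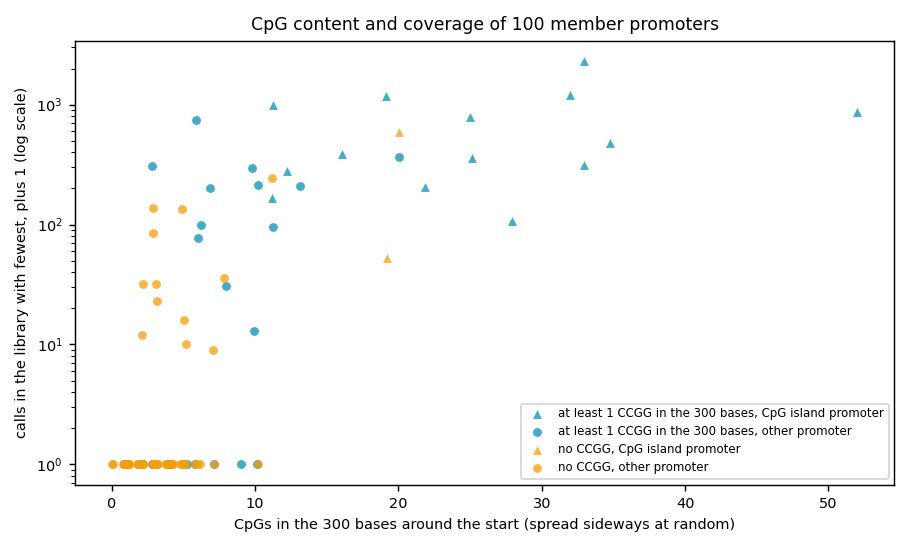
CpG content and coverage of the 100 promoters with a RefSeq window. The x axis gives CpGs in the 300 bases, the y axis the calls in the library with the fewest calls, plus 1, on a log scale. Triangles are promoters listed with a CpG island and circles the others, coloured by whether the window holds CCGG. The 60 promoters without any call lie along the bottom, with at most 10 CpGs.

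Promoter methylation of the covered genes was mostly low and no promoter was called different. A promoter here reaches 500 bp to either side of the start. Of the 294 promoter and body rows, 85 held enough information for the test and 0 had an adjusted p under 0.05 in the quasi-binomial model with limma-moderated dispersion, against 0.00581% of all 17209 tested rows. At an unadjusted p under 0.05 there were 13 (15.3%, against 12.8% of all), every one lower in the netrin-1 libraries, a direction with 11.9% of all. The other tests also called 0. Rows at an unadjusted p under 0.05 numbered 11 by limma on percentage points and 10 by limma on M values, against 10.1% of all rows by either test, and 2 without moderation, against 5.14%. Of the 54 promoters with at least 10 calls, 14 were tested, and 40 did not reach the information minimum, which depends on both the calls and the level.

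The 23 island promoters averaged 2.14% ± 0.127 in the netrin-1 libraries and 2.83% ± 0.0117 in the control libraries. The corresponding means over all 11928 island promoters with calls were 1.58% and 1.76%. The 33 promoters without an island but with calls averaged 20.8% ± 1.86 in the netrin-1 libraries and 22.2% ± 0.574 in the control libraries, and the groups overlapped. Over all 4599 such promoters the means were 19.1% in the netrin-1 libraries and 21.3% in the control libraries. Of the 31 in the set with at least 10 calls, 14 were lower and 15 higher in netrin-1 libraries. Of the 54 promoters with at least 10 calls, 11 lay under 1% (20.4%, against 38.7% of all promoters). The set holds fewer island promoters, and by type the counts were 8 of 23 with an island, against 5707 of all 11846. Without an island they were 3 of 31, against 527 of all 4245. In 14 of the 54 the groups did not overlap and the netrin-1 libraries were lower (25.9%, against 21% of all). In 4 they did not overlap and the netrin-1 libraries were higher (7.41%, against 13.2%).

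Interleukin promoters with at least 10 calls had mean levels between 1.77% and 67.5% (11 promoters). Il13, which encodes a type 2 cytokine, had one of the highest promoter levels, 65.9% and 61.5% in the netrin-1 libraries, against 74.2% and 68.2% in the control libraries (31 to 52 calls). Il17c, an epithelial cytokine, was at 54.7% and 40.96% in the netrin-1 libraries, against 34.1% and 53.3% in the control libraries, with groups that overlapped fully (adjusted p = 0.99995). Il23a encodes the specific subunit of IL-23 and had 5.797% and 3.804% in the netrin-1 libraries, against 11.3% and 11.04% in the control libraries, without overlap but below the information minimum for a test. The promoters of Il15, a cytokine for natural killer cells, and of Il7, a lymphocyte growth factor, were low, with 6.78% and 3.65% in the netrin-1 libraries, against 3.53% and 6.42% in the control libraries for Il15 and 1.69% and 2.78% in the netrin-1 libraries, against 1.96% and 1.16% in the control libraries for Il7. Il6, the prototype cytokine of the Il6st family, had 4.38% and 7.69% in the netrin-1 libraries, against 6.5% and 12.7% in the control libraries, and its groups overlapped.

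Receptor promoters contained both of those with an unadjusted p under 0.05 (14.3% of the 14 tested, against 12.3% of all tested promoters), which are named here because of those p-values. Il12rb2, the signalling chain of the IL-12 receptor, had 7.2% and 3.44% in the netrin-1 libraries, against 13.04% and 11.7% in the control libraries. Both netrin-1 libraries lay below both controls, by 7.04 percentage points (unadjusted p = 0.0229, adjusted p = 0.316). Il15ra, the high-affinity chain that presents IL-15, had 3.12% and 1.82% in the netrin-1 libraries, against 4.82% and 7.52% in the control libraries (difference -3.701 points, adjusted p = 0.315), again without overlap. The same order held for Il27ra, a subunit of the IL-27 receptor, at 4.73% and 3.78% in the netrin-1 libraries, against 7.77% and 7.304% in the control libraries (adjusted p = 0.488).

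Receptors linked to LIF and IL-6 signalling stayed low in both groups. The Il6st promoter, shown above with its 33 CpGs, had 1.502% and 2.4% in the netrin-1 libraries, against 1.28% and 4.196% in the control libraries. Il6ra, the ligand-binding chain for IL-6, had 2.28% and 0.878% in the netrin-1 libraries, against 0.571% and 1.17% in the control libraries. Neither separated the groups. Il17rd, a receptor-like protein that restrains FGF signalling, had 0.6797% and 0.755% in the netrin-1 libraries, against 0.369% and 1.33% in the control libraries. Il1rap, the shared co-receptor of the IL-1 family, had 1.04% and 0.546% in the netrin-1 libraries, against 0.953% and 1.402% in the control libraries over 2313 to 6222 calls per library (adjusted p = 0.641), and its groups overlapped. Il10rb, a chain shared by several receptors of the IL-10 family, was among the few higher in netrin-1 libraries without overlap, at 2.25% and 1.09% in the netrin-1 libraries, against 0.404% and 0.677% in the control libraries. Il4i1, an amino acid oxidase named for its induction by IL-4, was another, at 1.59% and 1.47% in the netrin-1 libraries, against 0% and 0.797% in the control libraries. At Il1r2, the decoy receptor of IL-1, the levels were 80% and 0% in the netrin-1 libraries and 60% and 75% in the control libraries, from only 12 to 20 calls.

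Chemokine promoters with calls were few, 12 of 35. Cxcl12, the ligand of Cxcr4, had 1.07% and 0.616% in the netrin-1 libraries, against 0.6803% and 1.33% in the control libraries, and Cxcl5, a neutrophil attractant without a listed island, 0.909% and 0.554% in the netrin-1 libraries, against 0.685% and 0.797% in the control libraries. The groups overlapped in both. Cxcl3, a neighbour of Cxcl5 on chromosome 5, had 0.407% and 3.09% in the netrin-1 libraries, against 3.302% and 5.31% in the control libraries, and Ccl9 33.3% and 33.3% in the netrin-1 libraries, against 45.8% and 36.4% in the control libraries from 11 to 36 calls, both without overlap. Cxcl10, a chemokine induced by interferon, stood at 16.7% in all 4 libraries (12 to 36 calls).

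Of the chemokine receptors, Cxcr4, which guides migrating stem and progenitor cells, was nearly free of promoter methylation at 0.526% and 1.59% in the netrin-1 libraries, against 0.779% and 0.273% in the control libraries. Ccr4, a T cell homing receptor, had one of the highest levels of the set, 27.3% and 41.5% in the netrin-1 libraries, against 69.6% and 45.9% in the control libraries, and the greatest fall without overlap, 23.4 points, from 22 to 118 calls. It did not reach the information minimum.

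Toll-like receptor promoters were covered in 5 of 12 genes, and at least 10 calls in every library were present in 4. Tlr12, a receptor for profilin of protozoan parasites in mice, had 9.21% and 13.3% in the netrin-1 libraries, against 25.3% and 20.9% in the control libraries, a difference of -11.9 points without overlap (76 to 110 calls, not tested). Tlr3, the sensor of double-stranded RNA, went the other way at 4.07% and 3.99% in the netrin-1 libraries, against 1.82% and 2.87% in the control libraries. Tlr2, which recognises bacterial lipoproteins, had 4.19% and 1.195% in the netrin-1 libraries, against 2.604% and 1.05% in the control libraries, with overlap. Tlr5, the flagellin receptor, was at 0 in every library, which allows up to 3.06% in the netrin-1 libraries and 1.94% in the control libraries, counting error only. Tlr6 stood at 100% in every library, but from only 8 to 13 calls each.

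**Figure D2:**
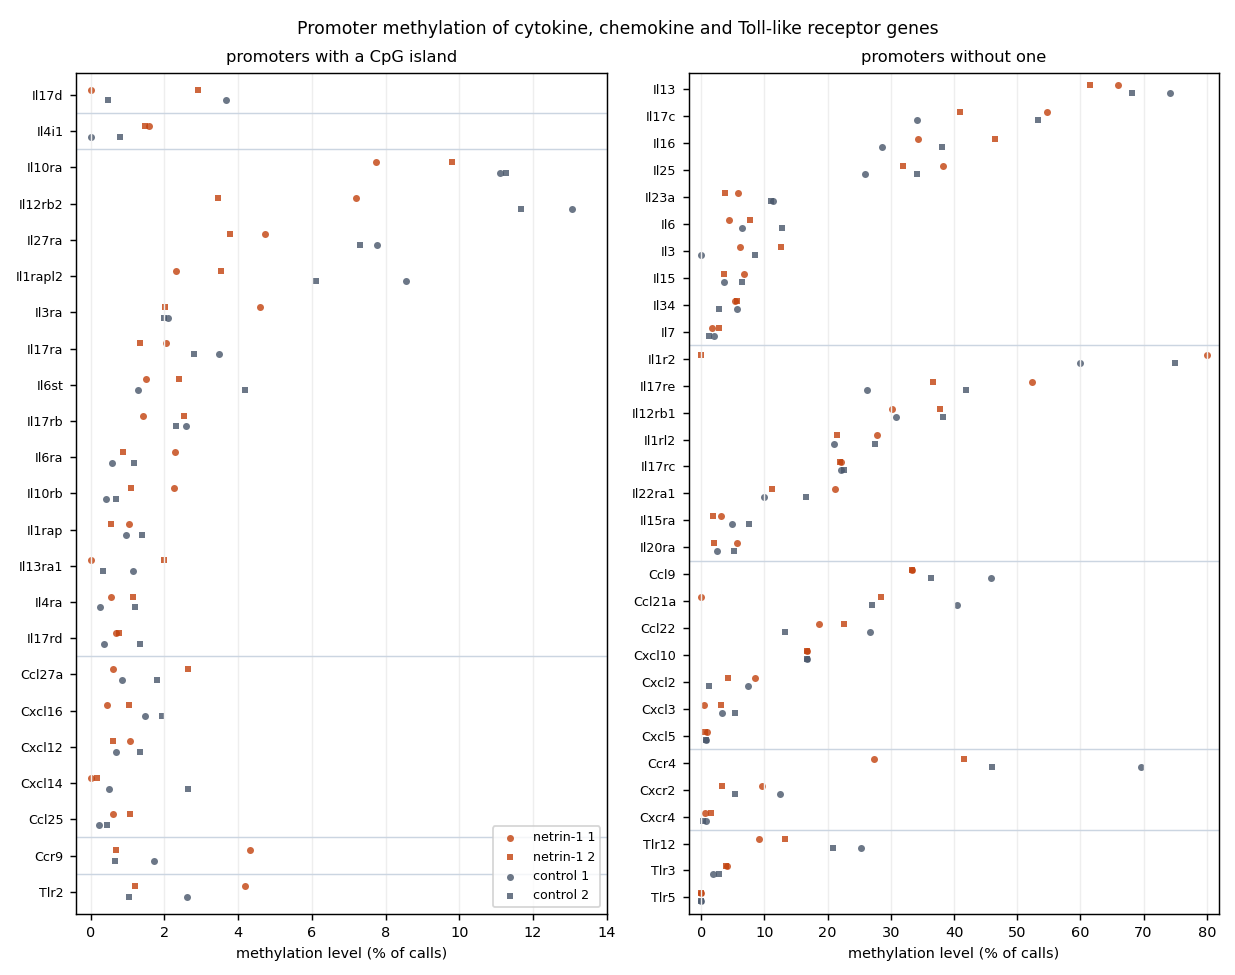
Methylation level of the 54 promoters with at least 10 calls in every library, as percent of calls on the x axis (the 2 panels have different scales), with 1 row per gene grouped by role. Orange marks are netrin-1 libraries and grey marks control libraries, circles replicate 1 and squares replicate 2. Island promoters reach at most 13.0%. In 7 of these 23, Il12rb2, Il1rapl2 and Il27ra among them, both orange marks lie to the left of both grey ones (against 2231 of all 11846 island promoters with at least 10 calls). In 3, Il4i1 and Il10rb among them, they lie to the right (against 1714 of the 11846).

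Gene bodies carried more methylation and were lower in the netrin-1 libraries. Over the 92 bodies with calls in every library the mean was 30.6% ± 0.908 in the netrin-1 libraries and 34.3% ± 1.71 in the control libraries (SD, n = 2 each). That difference of -3.64 points compares with -2.13 points over all 19231 bodies, and no test was made of the comparison. Among 88 bodies with at least 10 calls, 37 had non-overlapping groups with netrin-1 lower (42%, against 33.7% of all bodies). The opposite held for 6 (6.82%, against 7.59%). Of the 71 tested, 0 were called, while 11 reached an unadjusted p under 0.05, each of them lower in netrin-1 libraries (15.5%, against 12.9% of all tested bodies and 12% lower). These 11 are named here for their p-values.

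Among receptors, the Il17rd body had 11.2% and 9.39% in the netrin-1 libraries, against 17.998% and 14.98% in the control libraries, both netrin-1 libraries below both controls (difference -6.21 points, adjusted p = 0.213). The Il1rap body followed with 30.1% and 31.8% in the netrin-1 libraries, against 37.3% and 42.3% in the control libraries (adjusted p = 0.232). The promoters of both genes were near 1% in both groups. Il2ra, the inducible chain of the IL-2 receptor, had 36.8% and 36.4% in the netrin-1 libraries, against 42.4% and 44.7% in the control libraries in its body, and Il1rl1, the receptor of IL-33, 36.4% and 30.5% in the netrin-1 libraries, against 40.03% and 40.1% in the control libraries. Il17rc, which pairs with Il17ra in the IL-17 receptor, had 13.7% and 12.9% in the netrin-1 libraries, against 16.99% and 19.4% in the control libraries. Adjusted p-values were 0.286 for Il2ra, 0.385 for Il1rl1 and 0.341 for Il17rc.

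The body of Cxcr1, a receptor for neutrophil chemokines, had 33.3% and 41.6% in the netrin-1 libraries, against 53.3% and 62.3% in the control libraries (108 to 247 calls). This was the greatest fall among tested bodies, 20.4 points, with an adjusted p of 0.241. Among ligands, Il12a, a subunit of IL-12, had 19.7% and 20.1% in the netrin-1 libraries, against 32.5% and 30.5% in the control libraries (adjusted p = 0.262). Il1f5, an antagonist of the IL-36 receptor, had 5.68% and 18.1% in the netrin-1 libraries, against 25% and 33.7% in the control libraries, with a wide gap between the netrin-1 libraries. Il17d stood at 6.17% and 7.75% in the netrin-1 libraries, against 10.8% and 11.4% in the control libraries. Groups were fully separate in these 4.

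Toll-like receptor bodies included Tlr3, with 2.75% and 16.8% in the netrin-1 libraries, against 25% and 26.2% in the control libraries, and Tlr6, a partner of Tlr2, with 42.5% and 46.6% in the netrin-1 libraries, against 55.7% and 51.1% in the control libraries. Adjusted p-values were 0.347 for Tlr3 and 0.368 for Tlr6. Tlr3 rested on 5 to 6 covered positions, and its 2 netrin-1 libraries differed more from each other than the second did from the controls. The Tlr4 body, which encodes the receptor of lipopolysaccharide, had 32.04% and 39.7% in the netrin-1 libraries, against 39.5% and 43.2% in the control libraries, and that of Tlr2 34.3% and 24.7% in the netrin-1 libraries, against 28.1% and 21.7% in the control libraries, both with overlap. The body of Tlr9, the sensor of unmethylated CpG DNA, was almost unmethylated where read. It had 0% and 0.357% in the netrin-1 libraries, against 0% and 0% in the control libraries, and was not tested. Its 72 to 280 calls per library came largely from the CpG island inside it, which had 61 to 240.

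Bodies of the pair Cxcl12 and Cxcr4 did not separate the groups, at 29.5% and 25.7% in the netrin-1 libraries, against 24.4% and 26.1% in the control libraries for Cxcl12 and 8% and 11.6% in the netrin-1 libraries, against 10.6% and 15.9% in the control libraries for Cxcr4. The Il6st body had 36.4% and 36.2% in the netrin-1 libraries, against 43.3% and 41.1% in the control libraries, without overlap (adjusted p = 0.553), and the Il6ra body 31.99% and 32.8% in the netrin-1 libraries, against 35.9% and 34.6% in the control libraries (adjusted p = 0.833). Il11ra1, the receptor of IL-11, had 14.8% and 10.9% in the netrin-1 libraries, against 13.5% and 15.7% in the control libraries, Il2rg, the common receptor chain of the IL-2 family, 40.3% and 47.04% in the netrin-1 libraries, against 39.3% and 59.6% in the control libraries, and Il10 13.3% and 13.1% in the netrin-1 libraries, against 12.3% and 17.7% in the control libraries. Those 3 overlapped.

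The 6 bodies that were higher in netrin-1 libraries without overlap were those of Ccr7, Ccr10, Il13ra1, Il1r1, Il3ra and Il9r. Il13ra1, a chain of the IL-13 receptor on the X chromosome, had 61.4% and 49.4% in the netrin-1 libraries, against 43.5% and 43.1% in the control libraries from 83 to 116 calls. Il3ra, the IL-3 receptor chain, had 15.4% and 17.5% in the netrin-1 libraries, against 5.91% and 13.1% in the control libraries (adjusted p = 0.518). Ccr7, which directs cells to lymph nodes, had 34.8% and 36.2% in the netrin-1 libraries, against 26.7% and 31.4% in the control libraries (adjusted p = 0.512).

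**Figure D3:**
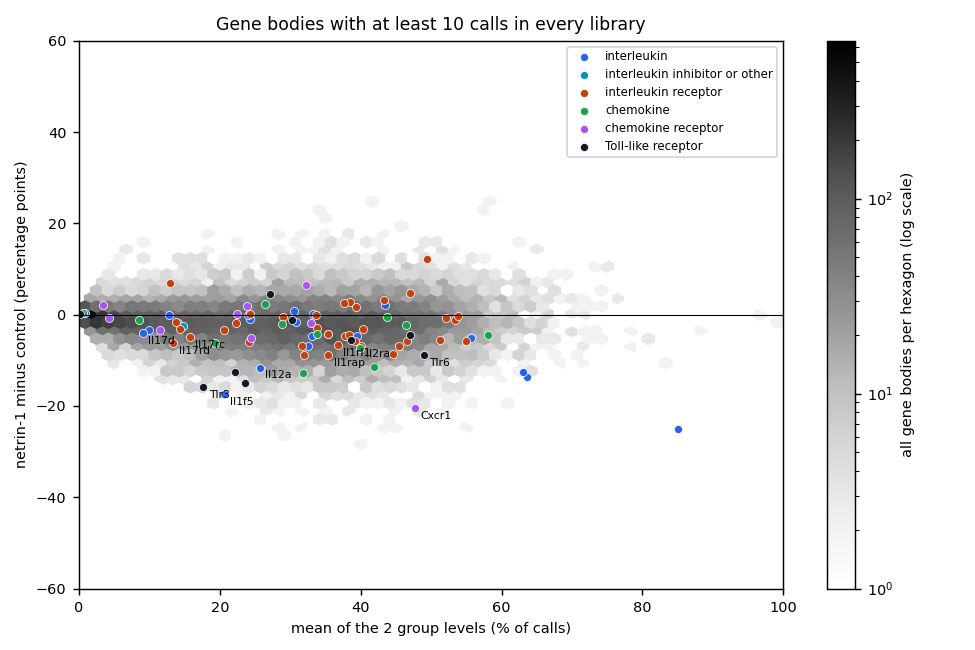
Difference of group means, netrin-1 minus control, in percentage points (y axis) against the mean of the 2 group levels in percent (x axis) for gene bodies with at least 10 calls in every library. Grey hexagons count all bodies on a log scale and coloured points are the 88 immune genes by role. Named points are the 11 with an unadjusted p under 0.05, and all of them lie below the zero line.

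By role, the mean body level was lower in netrin-1 libraries, without overlap, in the 5 groups of ligands and receptors. The interleukin bodies averaged 29.998% in the netrin-1 libraries and 35.4% in the control libraries (21 bodies). For interleukin receptors the means were 34.4% in netrin-1 libraries and 37.6% in control libraries (37 bodies). For chemokines they were 31.1% in netrin-1 libraries and 34.9% in control libraries (13 bodies). Toll-like receptor bodies stood at 25.1% in netrin-1 libraries and 31.6% in control libraries (9 bodies), and chemokine receptors at 24.03% in netrin-1 libraries and 25.3% in control libraries (10 bodies). Chemokine receptors were barely apart, at 24.4% and 23.7% in the netrin-1 libraries, against 26.2% and 24.5% in the control libraries. Of their 9 bodies with at least 10 calls, 5 were lower and 4 higher in netrin-1 libraries. The mean of the 2 covered bodies outside these roles was higher in netrin-1 libraries, at 24.9% and 20.02%, against 8.31% and 18.4% in the control libraries. Of these, Il18bp had 34.4% and 28.6% in the netrin-1 libraries, against 0% and 21.4% in the control libraries from only 5 to 32 calls, and Il4i1 15.5% and 11.5% in the netrin-1 libraries, against 16.6% and 15.3% in the control libraries, with overlap. Promoter means of interleukins, interleukin receptors and chemokines overlapped between groups. Those of chemokine receptors were 10.5% and 11.8% in the netrin-1 libraries, against 21.1% and 13.04% in the control libraries (4 promoters). Those of Toll-like receptors were 23.5% and 23.7% in the netrin-1 libraries, against 25.9% and 24.96% in the control libraries (5 promoters). The Toll-like receptor level comes mostly from Tlr6, fully methylated where read but from only 8 to 13 calls. The 4 with at least 10 calls had a median of 2.72% and at most 17.2%. Chemokine receptor and Toll-like receptor promoter means were both without overlap, but their differences rested largely on 1 promoter each. These were Ccr4 (difference -23.4 points, 22 to 118 calls) and Tlr12 (-11.9 points), neither of them tested. Of the chemokine receptor promoters, 2 were lower and 2 higher in netrin-1 libraries. Of the 4 Toll-like receptor promoters with at least 10 calls, 1 was lower and 2 higher.

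**Figure D4:**
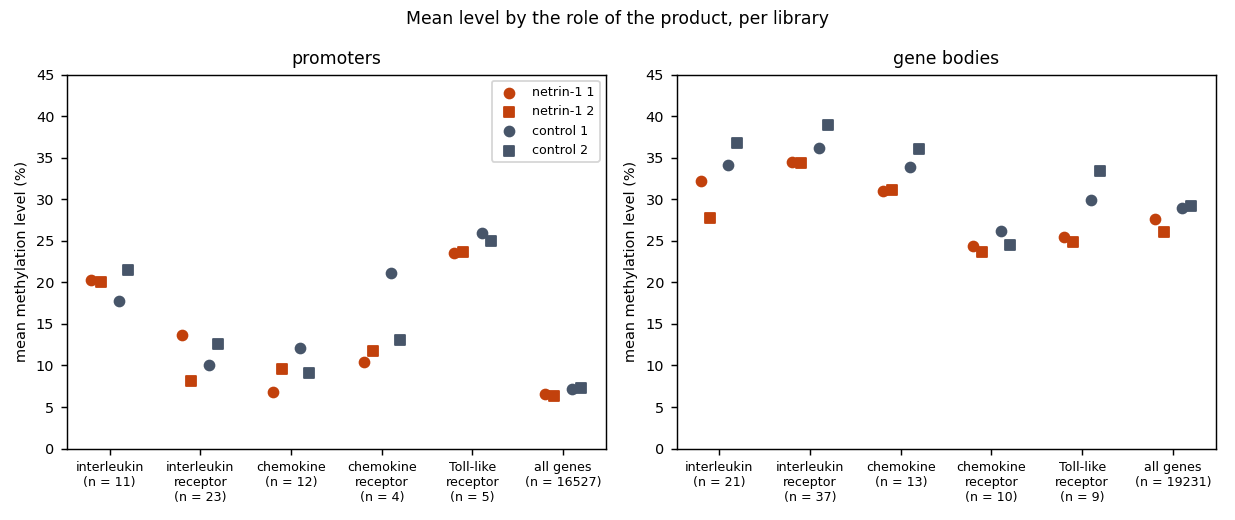
Unweighted mean methylation level in percent (y axis) by role of the product, for promoters on the left and gene bodies on the right, over the regions with calls in every library. Each mark is 1 library, orange for netrin-1 and grey for control. The Toll-like receptor promoters include Tlr6, fully methylated where read but from only 8 to 13 calls. In the body panel both orange marks lie below both grey ones in the 5 roles shown (the 2 bodies of other roles, whose mean went the other way, are left out), and likewise over all 19231 gene bodies.

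CpG islands of the set had low levels, at most 6.92% on average in all but 1 of the 36 with at least 10 calls. The 36 genes have 44 islands, of which 20 lie at a start site, 11 within a gene and 13 between genes, each with shores (the 2000 bp on either side) and shelves (the next 2000 bp). Neighbouring features overlap, so their calls are partly shared. Of those 36 islands, 10 lay under 1% (27.8%, against 47% of all islands). Non-overlapping groups were lower in netrin-1 libraries in 4 islands (11.1%, against 20.1%) and higher in 5 (13.9%, against 13.7%). Among shores the counts were 16 of 48 lower (33.3%, against 23.9%) and 6 higher (12.5%, against 9.96%). Among shelves they were 6 of 27 lower (22.2%, against 28%) and 3 higher (11.1%, against 10.1%).

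Mean levels were 5.33% ± 1.69 in the netrin-1 libraries and 4.85% ± 1.75 in the control libraries over 37 islands. All islands averaged 2.40% in the netrin-1 libraries and 2.76% in the control libraries. The 36 islands of the set with at least 10 calls had 3.93% and 3.53% in the netrin-1 libraries. Their control libraries had 3.47% and 3.39%, lower without overlap. These 36 include the island listed under Ccr1, described below, which was higher by 8.03 points in netrin-1 libraries. Shores averaged 15.7% ± 0.740 in the netrin-1 libraries and 17.6% ± 1.78 in the control libraries (55 shores). All shores averaged 10.6% in the netrin-1 libraries and 11.7% in the control libraries. Shelves averaged 27.9% ± 1.38 in the netrin-1 libraries and 29.7% ± 2.44 in the control libraries (33 shelves). All shelves averaged 26.8% in the netrin-1 libraries and 28.8% in the control libraries. Libraries of the 2 groups overlapped over the 37 islands and the 33 shelves but not over the 55 shores.

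Islands at start sites share calls with their promoters, and those of Il6st are the same calls in both. The Il27ra island had 2.8% and 2.37% in the netrin-1 libraries, against 6.06% and 6.86% in the control libraries, and the Il6st island 1.502% and 2.4% in the netrin-1 libraries, against 1.28% and 4.196% in the control libraries. An island listed under Il21r, 21945 bp from its start, had 0.855% and 0.964% in the netrin-1 libraries, against 5.62% and 3.45% in the control libraries, the lower level in the netrin-1 libraries without overlap. The island inside Cxcr4 had 0% and 0.292% in the netrin-1 libraries, against 1.5% and 0.889% in the control libraries, and that of Cxcl12 0.984% and 0.827% in the netrin-1 libraries, against 1.71% and 1.47% in the control libraries, again without overlap at levels under 2%. Of those that were higher in netrin-1 libraries, the island in Ccr10, a receptor of skin-homing cells, had 5.08% and 3.43% in the netrin-1 libraries, against 0.248% and 1.76% in the control libraries. That of Il17re rested on 12 to 101 calls and is not described further.

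Some shores were lower in the netrin-1 libraries, and those named were picked for their p-values or as the greatest falls. The shore upstream of Il12rb2 (chr6:67376222-67378221) had 18.7% and 13.4% in the netrin-1 libraries, against 33.9% and 35.9% in the control libraries, a difference of -18.9 points (adjusted p = 0.206). It overlaps the promoter described above, so the 2 are not separate observations. The Il6ra shore had 26.6% and 26.4% in the netrin-1 libraries, against 33.2% and 41.5% in the control libraries (adjusted p = 0.285). An Il1rap shore was at 0.655% and 0.338% in the netrin-1 libraries, against 1.06% and 1.65% in the control libraries (adjusted p = 0.195). All 3 shores were lower in the netrin-1 libraries without overlap. The Il1rap island between its shores went the other way, with 2.51% and 1.82% in the netrin-1 libraries, against 0.665% and 0% in the control libraries, also without overlap and not tested. The shore of Il6st had 9.68% and 0% in the netrin-1 libraries, against 23.7% and 28% in the control libraries, from 25 to 80 calls, and was not tested. The shelf of Il1rapl2, a gene of the IL-1 receptor family, had 13.9% and 18.2% in the netrin-1 libraries, against 20.1% and 40.1% in the control libraries (adjusted p = 0.296).

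Of the 38 island, shore and shelf rows tested, 2 were called (5.26%, against 0.186% of all 11815), both higher in netrin-1 libraries (0.0677% of all were called higher) and both listed under Ccr1, a receptor for several CC chemokines. An unadjusted p under 0.05 was found for 7 (18.4%, against 12.1% of all), of which 5 were lower in netrin-1 libraries (10.5% of all). The island (chr9:123924690-123925609) had 67.99% and 68.1% in the netrin-1 libraries, against 61.4% and 58.7% in the control libraries (adjusted p = 0.0007901). The shore of a neighbouring island (chr9:123923339-123925338), which overlaps it, had 68.1% and 67.8% in the netrin-1 libraries, against 57.6% and 57.1% in the control libraries (adjusted p = 4.96e-05). In each the groups were well apart and the 2 netrin-1 libraries nearly equal. Because the 2 rows overlap, they are not separate findings. Both calls rest on the moderated dispersion: the count was 0 by each of the other tests. At an unadjusted p under 0.05 there were 3 rows without moderation (7.89%, against 3.66% of all), 1 by limma on percentage points (2.63%, against 9.82%) and 2 by limma on M values (5.26%, against 9.88%).

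The island is annotated as intergenic, 43083 bp from the start of Ccr1, and was the only 1 of the 36 islands with at least 10 calls whose mean level passed 50%. The next highest was 6.92%, in Il17re. In RefSeq the non-coding gene Gm51701 (chr9:123925148-123928706) overlaps it. The Ccr1 gene lies 36517 bp beyond it and Xcr1, another chemokine receptor gene, ends 62661 bp before it. Coverage was high, at 86.5 calls per covered position in the island, against a median of 12.6 over islands, and 67.6 in the shore, against a median of 15.4 over shores. These were the 99.9th percentile of islands and the 98.4th of shores. The part of that coverage in the result was not tested.

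The island's own shore on the side away from Ccr1 (chr9:123922690-123924689) had 53.9% and 53.2% in the netrin-1 libraries, against 43.9% and 47.9% in the control libraries, higher without overlap but with an adjusted p of 0.473. This shore overlaps the called shore, so the 2 are not separate observations. A row listed as a shelf of the neighbouring island (chr9:123925339-123927338) had 59.7% and 62.97% in the netrin-1 libraries, against 66.1% and 58.5% in the control libraries, with overlapping groups (adjusted p = 0.997). It overlaps the end of the called island, and all but at most 2 calls of a library lie in that overlap, so it describes part of the island and no flank. The shore between the island and Ccr1 had 0 to 2 calls per library and could not be read. The Ccr1 promoter and body had no call. The 100 kb window that holds Ccr1 had 54.9% and 59.1% in the netrin-1 libraries, against 56.02% and 55.4% in the control libraries, from 26 to 27 covered positions, fewer than the 86 to 99 of the island alone, so the 2 tables do not hold the same positions.

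**Figure D5:**
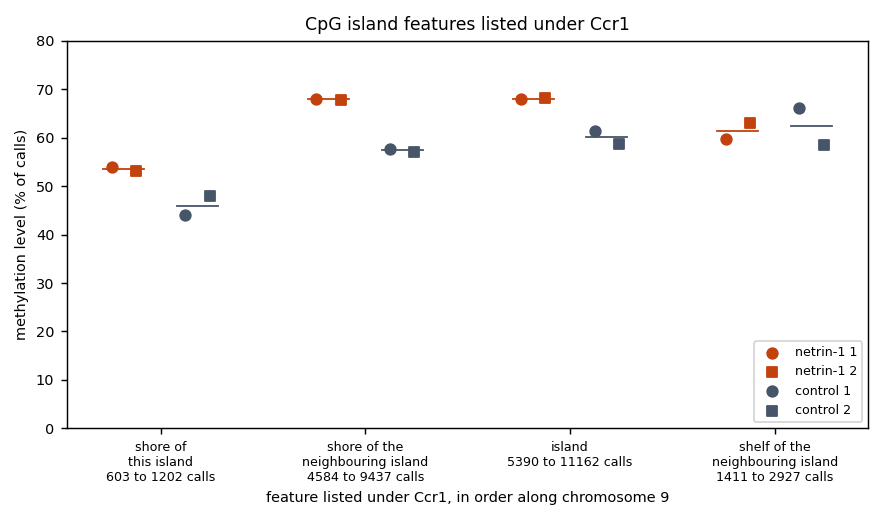
Methylation level in percent of calls (y axis) of the 4 features listed under Ccr1 with at least 10 calls in every library, in order along the chromosome (x axis, with the range of calls per library). Orange marks are netrin-1 libraries, grey marks control libraries, and lines the group means. The orange marks lie above the grey ones in the first 3 features and among them in the shelf row, nearly all of whose calls lie in the end of the island. The shore of the neighbouring island overlaps both the island and its own shore, so calls are partly shared.

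Windows of 100 kb give a wider view of the surroundings. A start of an immune gene fell in 121 windows, and 115 were tested. Only 1 was called (0.87%, against 2.22% of all 23743 and 2.2% called lower), that holding Il9, a cytokine of mast cells and helper T cells (chr13:56400001-56500000). It had 16.6% and 15.8% in the netrin-1 libraries, against 25.4% and 26.8% in the control libraries (adjusted p = 0.0298), whereas the promoter and body of Il9 had no call. The window was no longer called without netrin-1 replicate 2 (adjusted p = 0.0942) or without control replicate 2 (adjusted p = 0.218), and no window of the set was called by the other tests or with each library centred. An unadjusted p under 0.05 was found for 27 windows, all lower in netrin-1 libraries (23.5%, against 22.2% of all and 21.7% lower). The mean over the 120 windows with calls was 33.5% ± 1.04 in the netrin-1 libraries and 37.03% ± 0.896 in the control libraries. Over all 25938 windows it was 34.7% in the netrin-1 libraries and 38.6% in the control libraries.

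The window of the chemokine genes Cxcl5, Cxcl3 and Cxcl15 (chr5:90700001-90800000) had 27.6% and 27.2% in the netrin-1 libraries, against 35.8% and 35.9% in the control libraries, and missed the threshold (adjusted p = 0.0575). That of Il12rb2 had 30.8% and 29.2% in the netrin-1 libraries, against 37.9% and 41.6% in the control libraries (adjusted p = 0.0727), in the same direction as its promoter, body and shore. The promoter and shore lie within this window, so their shared direction is not a separate observation. The window of Il12a had 35.6% and 33.7% in the netrin-1 libraries, against 45.6% and 42.7% in the control libraries (adjusted p = 0.0586) and that of Tlr4 30.7% and 33.2% in the netrin-1 libraries, against 44.8% and 45.5% in the control libraries from 21 to 23 positions (adjusted p = 0.0769). The Il18 window had 30.5% and 28.96% in the netrin-1 libraries, against 36.2% and 39.8% in the control libraries (adjusted p = 0.0641), whereas the Il18 promoter had no call. These windows were picked for their p-values, and none showed overlap between groups.

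A list of 60 further genes of the same pathways was read beside the set, covering other cytokines and their receptors, adaptors, JAK and STAT proteins and feedback inhibitors. Of their promoters 48 had at least 10 calls and 22 lay under 1%, 4 were tested and 0 called. None of those had an unadjusted p under 0.05 either. Stat3, the main effector of LIF, had 0.228% and 1.17% in the netrin-1 libraries, against 1.12% and 0.795% in the control libraries at its promoter, and the LIF receptor Lifr 0.753% and 0.522% in the netrin-1 libraries, against 0.181% and 0.413% in the control libraries. The promoter of the Toll-like receptor adaptor Myd88 had 3.2% and 0.433% in the netrin-1 libraries, against 0% and 1.69% in the control libraries. Of 45 tested bodies 0 were called by the quasi-binomial model and 4 had an unadjusted p under 0.05, those of Csf2rb, Irak4, Osmr and Stat4 (8.89%, against 12.9% of all tested bodies). Osmr, the oncostatin M receptor, had 17.4% and 20.1% in the netrin-1 libraries, against 24.3% and 27.9% in the control libraries (adjusted p = 0.292), and Stat4, which transmits IL-12 signals, 28.6% and 28.4% in the netrin-1 libraries, against 38.2% and 37.4% in the control libraries (adjusted p = 0.278). All 4 were lower in the netrin-1 libraries.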

How the data were processed

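DNA methylation was profiled by RRBS in 4 libraries, 2 netrin-1 and 2 control, grouped by their titles. Per the submitters' processing notes, the builds were mm10 and GRCm38 and FastQC was used. For the aligner, the methylation caller and duplicate removal, nothing is stated in the labels. Per the file headers, the authors deposited 3 tables (gene features, CpG island features and 100 kb windows) with the count of covered positions, of total calls and of methylated calls per library, and the level as a fraction. That deposited fraction is the methylated share of the calls and is given here as a percent. The authors' tables also give island length and CpG number as other annotation.

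Each table was fitted whole with a quasi-binomial logistic model in R 4.3.3. It used rows with at least 10 calls in every library, not all at the same level, and with calls × level × (1 − level) averaging at least 25. The dispersion was moderated with limma 3.58.1 (squeezeVar: trend on coverage, robust, floor of 1). Benjamini-Hochberg adjustment ran over the whole table, with a threshold of 0.05. The script was tested on simulated data. Class means are unweighted over regions with calls in every library and carry no test, since 2 libraries against 2 cannot go below p = 0.333 in an exact permutation test. Calls from amplified reads are not independent molecules, so the limit given for a level of 0, of 3 calls in a group, covers counting error only.

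Named genes are, for each kind of region, those called, the 3 greatest falls and 3 greatest rises without overlap between groups, the 3 highest levels, and a list of 18 genes of interest. Other named genes were chosen after their values were seen. The members and lists were chosen with earlier results of these data known. Alternatives changed the minimum calls, the information minimum, the dispersion, the test, the scaling, the pairing and the libraries.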

Additional observations from a re-analysis of the deposited data

How the results depend on the processing

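The counts of called promoters and bodies stayed at 0 under every alternative run. The 2 calls near Ccr1 held under the other minimums, without robust moderation, with each library centred, with the replicate block and with any 1 library left out, but the count was 0 with unmoderated dispersion, with limma on percentage points and with limma on M values. Windows and the results without Ccr1 were added after seeing the data. Called windows numbered 0 with unmoderated dispersion, limma on percentage points, limma on M values or centring, and 0 to 4 with 1 library left out. The Il9 window itself was no longer called without netrin-1 replicate 2 (adjusted p = 0.0942) or without control replicate 2 (adjusted p = 0.218, limma-moderated).

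Mean differences of promoters (-1.97 to -0.340 points with 1 library left out) and bodies (-4.85 to -2.43 points) stayed negative in every alternative. Weighted by calls, the island difference was 4.999 points and the shore difference 4.05 points, in place of 0.482 and -1.89. Without the features listed under Ccr1 the weighted values were -0.213 and -1.42 points. As medians, shores differed by -4.16 and shelves by -5.52 points.

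Deviations of same-numbered libraries were hardly correlated, at 0.00845 for gene features, 0.00751 for CpG island features and 0.0335 for windows. These values cannot show whether such libraries were handled together, which is not in the labels. With the replicate number as a block, 5 windows were called (4.35%, against 6.38% of all). The counts of 0 promoters and bodies (against 1.74% of all) and of 2 island features (5.26%, against 0.288%) did not move.

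Directions turned for some named regions, none of them called. With each library centred, the log odds were 0.0326 in the Il6ra body, 0.176 in the Ccr1 shelf and 0.194 in the Cxcr4 shelf. With the replicate block they were -0.0816 in the Il15 promoter, -0.00144 in the Il17c promoter, 0.00344 in the Ccr1 shelf and 0.0235 in the Cxcr4 shelf. With 1 library left out, differences ranged from -1.32 to 1.81 points in the Il15 promoter, -5.497 to 13.8 in the Il17c promoter, -4.53 to 0.848 in the Il10 body, -15.9 to 4.39 in the Il2rg body, -0.218 to 9.45 in the Tlr2 body, and -3.64 to 0.202 in the Il11ra1 body. They ranged from -1.87 to 0.0979 in the Cxcr3 island, -4.79 to 2.82 in the Ccr1 shelf, -6.10 to 6.34 in an Il10ra shelf, -7.17 to 2.10 in the Cxcr4 shelf, and -3.76 to 7.999 in a Tlr2 shelf. The cause was not tested. Coverage is a limit: 91 promoters could not be read, and 40 of the 54 covered ones held too little information for a test.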
